A study of Helianthus annuus with 6 samples.

Results

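In petioles of cultivated sunflower, 159 loci outside the RefSeq gene set were detected in every library of the inbred line 19G and listed at 0 in every library of the inbred line 20G. They belong to the 13716 new loci that the authors list beside RefSeq genes, among 70842 loci in all. The members were chosen by their measured values: an identifier containing newGene, at least 5 FPKM in each of the 3 libraries of 19G, and exactly 0 in each of the 3 libraries of 20G. The 100 loci with the highest mean over the 6 libraries were to be left out, which removed 0 loci that met the other criteria. FPKM is a fragment number normalised to transcript length and library size, so levels can be set side by side between loci. Because the difference between the lines chose the members, it is given below as a description, and a test is given only on libraries that the choice did not use.

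The groups were petioles of 19G, a leaf-flat inbred line with a large petiole inclination angle, and petioles of 20G, a leaf-compact inbred line with a small angle. The labels give no treatment, age or growth stage, and do not tell if each library is a plant of its own, so the spread between replicates, and any p-value built on it, may be technical. Angle and line coincide, and a difference between these groups cannot be told apart from any other difference between the lines. The tissue is bulk, so fewer cells of a type and less RNA per cell cannot be told apart either.

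When transcripts are assembled from sequencing reads, those that match no annotated gene are kept as new loci. Such loci can be protein-coding genes that the annotation lacks, long non-coding RNAs, transcripts of transposable elements, or untranslated stretches of a neighbouring gene. The sunflower genome is rich in long terminal repeat retrotransposons, and cultivated lines are known to differ in which genes they carry. Which of these kinds any member belongs to is not analysed here. A RefSeq gene table of the assembly HanXRQr2.0-SUNRISE held all 57126 RefSeq identifiers of the files and 0 of the 159 members. Members were chosen by their newGene identifiers, so this absence follows from the choice. No product name or function is listed for them, and their positions and sequences are not analysed here.

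The first library of 19G stood apart from the others of its line, also at loci of the opposite kind. Among RefSeq genes with at least 5 FPKM in every 20G library, 12 had signal in 19G replicate 1 alone among the 19G libraries, at a median of 3.90 FPKM, with 8 of the 12 above 1 FPKM. The same count was 7 genes in 19G replicate 2 and 16 in replicate 3, where 0 exceeded 1 FPKM in either library. Among new loci at 5 FPKM or more in 20G, 6 of the 16 with signal in 19G replicate 1 alone were above 1 FPKM, with a highest value of 39.0. Whether that library holds RNA of another source was not tested, and this bears on each value of replicate 1 below and on the loci that the rule lost through it. The number of members, their spread and their share among new loci are therefore also given without it.

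The members were of low to moderate abundance in 19G. Their mean FPKM over the 3 libraries ran from 5.81 to 63.5, with a median of 11.7. Of the 159 loci, 60 averaged under 10 FPKM, 68 averaged 10 to 20, 29 averaged 20 to 40, and 2 averaged more than 40. In 19G replicate 1 they ran from 5.00 to 74.3 FPKM with a median of 9.26. In replicate 2 they ran from 5.09 to 83.9 with a median of 13.3, and in replicate 3 from 5.25 to 61.6 with a median of 12.4. Together the members took 0.271%, 0.410% and 0.377% of the summed FPKM of 19G replicates 1, 2 and 3. No small group of loci dominated that sum, since the 8 most abundant members held 14.6% of it.

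**Figure D1:**
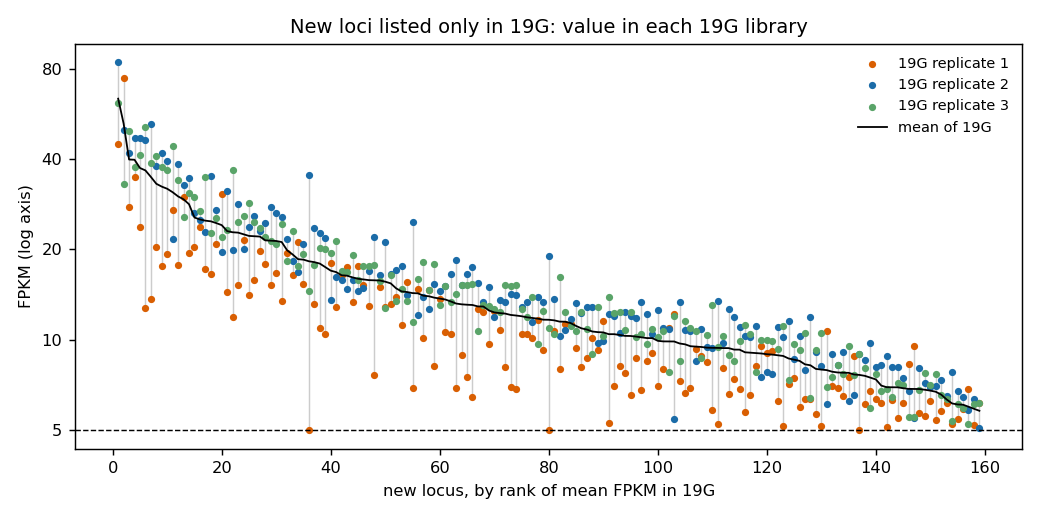
FPKM on a log axis for each of the 159 new loci listed only in 19G, ordered by mean level, with 1 point per 19G library, a grey bar from the lowest to the highest library, a black line for the mean and a dashed line at the 5 FPKM threshold. The 20G libraries are not drawn because all of their values are 0. The means fall from 63.5 to 5.81, and the points of replicate 1 mostly lie at the lower end of the grey bars.

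The most abundant member was newGene_3717 (in the files, Helianthus_annuus_newGene_3717), at 45.0, 83.9 and 61.6 FPKM in 19G replicates 1 to 3, or 63.5 ± 19.5 (SD, n = 3). The next, newGene_9900, stood at 74.3, 50.1 and 33.0 FPKM. These 2 loci differ in which library is highest: newGene_3717 was highest in replicate 2 and newGene_9900 in replicate 1.

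The third and the fourth lay close together in mean level. newGene_25130 averaged 39.9 ± 11.1 FPKM (SD, n = 3), with 27.8, 42.0 and 49.7 in the 3 libraries. newGene_25055 averaged 39.8 ± 6.40 (SD, n = 3), with 34.8, 47.0 and 37.5, so their order is within the spread of either locus.

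The remaining 4 of the 8 highest were each lowest in replicate 1, by unequal amounts. newGene_19366 stood at 23.8, 46.9 and 41.3 FPKM in replicates 1 to 3, and newGene_12860 at 20.4, 38.0 and 40.9. newGene_16281 stood at 12.8, 46.2 and 51.0 FPKM, and newGene_23633 at 13.7, 52.3 and 38.7. In the first pair replicate 1 held 54.0% and 51.7% of the mean of replicates 2 and 3. In the second pair it held 26.3% and 30.1%.

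Other members were nearly level across the 3 libraries. The smallest coefficient of variation, the SD divided by the mean, was 2.62% in newGene_3858, at 11.3, 11.7 and 11.1 FPKM. newGene_20029 followed at 6.15, 6.50 and 6.36 FPKM, and newGene_12374 at 12.4, 12.0 and 12.6. newGene_5420 stood at 12.4, 13.3 and 13.0 FPKM, a coefficient of 3.69%. Replicate 1 was the lowest library in newGene_20029 and newGene_5420 and the middle one in the other 2 loci.

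At the edge of the rule, members and non-members formed a continuum in 19G. The lowest value that admitted a member was 5.00 FPKM in replicate 1 for newGene_8050, whose other 2 values were both 8.97. newGene_19189 entered with 5.02 FPKM in replicate 1 beside 35.3 and 14.5, and newGene_19326 with 5.03 beside 19.1 and 10.9. newGene_7896 had the lowest mean, with 6.16, 5.09 and 6.18 FPKM. Just outside lay newGene_21126 at 4.99, 8.10 and 7.82 FPKM and newGene_2844 at 4.97, 6.84 and 8.52. newGene_18268 missed with 4.92 in replicate 1 beside 9.67 and 12.1, and newGene_26438 with 4.92 in replicate 3 beside 8.82 and 8.74. All of these were listed at 0 in the 3 libraries of 20G.

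Replicate 1 decided this edge more often than the other libraries. Of the 27 members whose lowest 19G value lay between 5 and 6 FPKM, 21 had it in replicate 1. That is near the general share, since replicate 1 was lowest in 73.6% of all members. Over all new loci at 5 FPKM or more in every 19G library it was lowest in 80.3%. Of the new loci at 0 in 20G, 81 missed the rule by replicate 1 alone, 5 by replicate 2 alone and 10 by replicate 3 alone. Of the 81, 73 stood at 1 to 5 FPKM in replicate 1 and 3 were listed at 0 there. Without replicate 1 the rule would hold 240 loci in place of 159.

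A further set of new loci was as abundant in 19G but had a trace in 20G. In 19G newGene_24098 averaged 30.3 ± 4.99 FPKM (SD, n = 3), while its 20G values were 0.00998, 0 and 0.00700. newGene_19298 stood at 9.71, 21.1 and 20.2 FPKM in 19G and at 0.00770, 0 and 0 in 20G. newGene_11258 and newGene_20372 each had 1 trace value in 20G, of 0.00300 FPKM in replicate 1 and 0.00704 in replicate 3. With up to 0.1 FPKM allowed in 20G, the rule would hold 252 loci.

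The traces were unevenly spread over the 20G libraries. Of the new loci at 5 FPKM or more in 19G with signal in exactly 1 library of 20G, 51 had it in replicate 3, 17 in replicate 1 and 7 in replicate 2. The median trace was 0.0362 FPKM in replicate 3, 0.0451 in replicate 1 and 0.0353 in replicate 2. The highest was 0.242 in replicate 3, 34.9 in replicate 1 and 0.306 in replicate 2. Among RefSeq genes the same counts were 16, 9 and 9, with a highest value of 29.2 FPKM in replicate 1. Lone signal above 1 FPKM was thus also seen in 20G replicate 1, at 1 new locus and 1 RefSeq gene.

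The rule requires 0 in every library of 20G, and how often a well expressed locus is listed at 0 in just 1 library was counted apart from it. Between 932 and 1095 new loci reached 5 FPKM in any 5 libraries, and 0 of them were listed at 0 in the remaining library, whichever it was. Among RefSeq genes, of which 11677 to 12416 reached 5 FPKM in 5 libraries, 1 was listed at 0 in the remaining library, 20G replicate 2. The lowest value above 0 of any new locus was 0.000194 FPKM in 20G replicate 1, 7.7e-05 in replicate 2 and 0.000254 in replicate 3. FPKM carries no read counts and the depth is unknown, so no detection limit can be given for the members in 20G.

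Among loci of like level in 19G, absence from 20G was listed for a larger share of new loci than of RefSeq genes, which is part of what the rule selects and is not tested. Outside the 100 most abundant loci, 1482 new loci had at least 5 FPKM in every 19G library, of which the 159 members made up 10.7%. The same definition held for 90 of 12596 RefSeq genes, or 0.715%. The share of members was similar at low and middle levels: 12.3% of the new loci averaging 5 to 10 FPKM in 19G, 11.4% of those at 10 to 20 and 11.3% of those at 20 to 40. Above 40 FPKM it was 1.42%, or 2 of 141 loci. For RefSeq genes the shares at the same levels were 1.33%, 0.791% and 0.586%, and above 40 FPKM 0.109%, or 3 of 2751 genes. Without 19G replicate 1, an alternative added after seeing the data, the definition held for 240 of 1972 new loci (12.2%) and 124 of 14562 RefSeq genes (0.852%). The shares of new loci by level were then 13.5%, 13.1% and 11.1%, and above 40 FPKM 4.00%, or 7 of 175 loci. Most of the 1482 were expressed in both lines, with 1018 (68.7%) above 5 FPKM in at least 1 library of 20G.

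**Figure D2:**
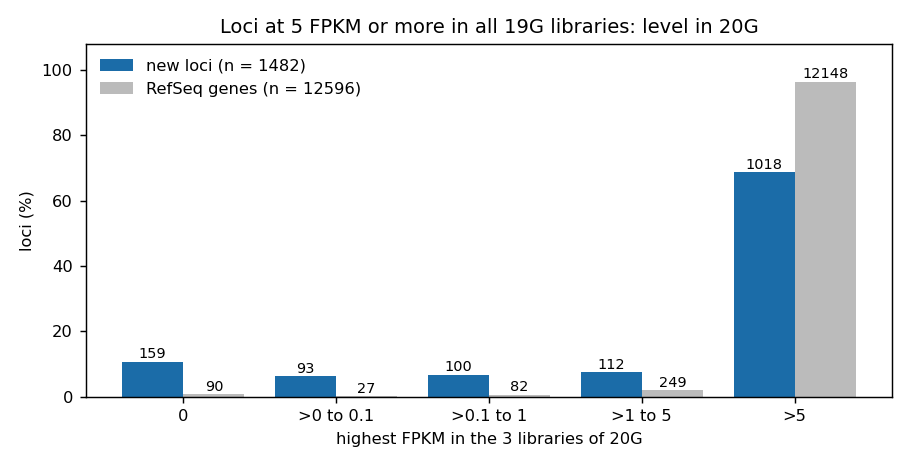
Share of loci, in percent, by their highest FPKM in the 3 libraries of 20G, for new loci (blue) and RefSeq genes (grey) that reached 5 FPKM in every 19G library, with the number of loci above each bar. The 159 members are the leftmost blue bar, 10.7% of 1482 new loci, beside 90 RefSeq genes.

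The reverse pattern was also present. New loci at 5 FPKM or more in every 20G library and at 0 in every 19G library numbered 152, with a median level of 10.8 FPKM in 20G against 11.7 in 19G for the members. The 90 RefSeq genes listed only in 19G had a median of 11.4 FPKM and reached 198.7, where the highest member averaged 63.5. The median coefficient of variation was 20.0% among the members, 22.4% among those RefSeq genes, and 22.7% within 20G among the 152 new loci. Over all 1482 new loci at 5 FPKM or more in 19G it was 22.6%. Over all 12596 RefSeq genes at that level it was 19.4%. Without 19G replicate 1 it was 9.96% among the members and 12.2% among those RefSeq genes.

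New loci were chosen on 1 library of each line and tested in the other 4, to ask if the difference between lines recurs there. The members are among the chosen loci, and for them the rule fixed the values in the other 4 too. The libraries numbered 1 alone gave 266 new loci at 5 FPKM or more in 19G and at 0 in 20G. In the 4 remaining libraries, 252 of the 266 (94.7%) were called lower in 20G and 0 were called higher, beside 11.6% of all 29102 loci tested that were called lower (limma on log2(FPKM + 1), two-sided; a call needs a log2 difference of 1 or more in size and an adjusted p below 0.05). The 8 chosen loci that did not reach 1 FPKM in 2 of the 4 libraries were not tested and count as not called. Chosen on the libraries numbered 2, 379 of 405 loci (93.6%) were called lower, beside a background of 6.98%. Chosen on those numbered 3, 300 of 336 loci (89.3%) were called lower, beside 6.99%. With a 20G library left out of the test, leaving 1 of 20G against 2 of 19G, calls fell to 5 of 405 without replicate 1 or 3 and to 2 of 336 without replicate 1 or 2, while for the loci chosen on replicate 1 they were 223 of 266. In the same fits, loci called lower in 20G over all tested fell from 3379 to 1814 or 1897 for the choice on replicate 1, from 1998 to 85 or 84 for replicate 2 and from 1998 to 68 or 66 for replicate 3. Loci called higher in 20G fell less, from 1965 to 1151 or 1174 for replicate 2 and from 1842 to 1097 or 1095 for replicate 3.

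Most chosen loci were listed at 0 again in both held-out libraries of 20G, the members among them by the rule. Of the 266 loci chosen on replicate 1, 189 were at 0 in both other libraries of 20G and 232 were at 5 FPKM or more in both other libraries of 19G. The 159 members meet each choice by definition, and the rule also fixed their values in the held-out libraries. They made up 59.8%, 39.3% and 47.3% of the loci chosen on replicates 1, 2 and 3. The shares called lower are therefore not a test of the members. They were not computed for the other chosen loci alone. Of the other loci chosen on replicate 1, 30 failed the rule through a 19G value under 5 FPKM alone and 73 through signal in 20G alone. For the choice on replicate 2 these counts were 134 and 91, and for replicate 3 they were 124 and 34. Both held-out values of 19G lay above both of 20G in 258 of the 266 loci chosen on replicate 1, beside 37.6% of all loci tested there. For the choice on replicate 2 it was 399 of 405 loci beside 21.5%, and for replicate 3 it was 322 of 336 beside 20.4%. The members meet this by the rule, so these counts are not a test of them either.

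**Figure D3:**
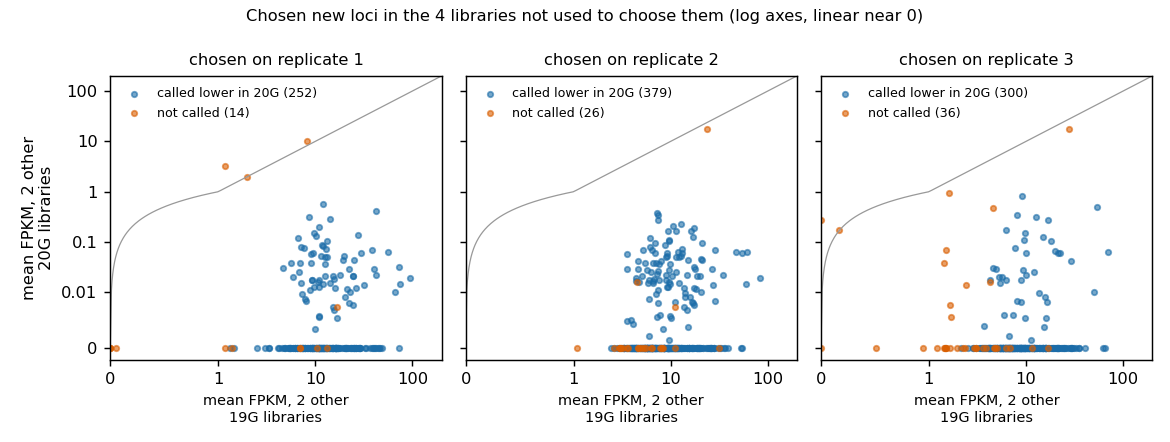
Mean FPKM in the 2 other 19G libraries (x) and in the 2 other 20G libraries (y) of new loci chosen on the libraries numbered 1, 2 or 3, on log axes that are linear near 0, with the line of equality in grey. Blue points (252, 379 and 300 loci) were called lower in 20G and orange points were not, and most points lie on or near 0 on the y axis.

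The choice from 1 library per line also admitted 3 loci that reached 5 FPKM in some other library of 20G, named here after their values were seen. newGene_24198 stood at 32.4, 22.3 and 15.2 FPKM in 19G and at 34.9, 0 and 0 in 20G. newGene_23513 stood at 16.8, 8.67 and 7.88 FPKM in 19G and at 0, 18.1 and 1.93 in 20G. newGene_14762 stood at 5.58, 2.34 and 0 FPKM in 19G and at 0, 0 and 6.53 in 20G. In each of them the lines overlap, and the libraries of 20G differ in whether the locus is listed above 0. None of the 3 is a member.

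Among themselves the members varied in 19G mainly through replicate 1. Replicate 1 was the lowest of the 3 libraries in 117 members (73.6%), replicate 2 in 24 and replicate 3 in 18. Among loci at 5 FPKM or more in 19G, replicate 1 was lowest in 80.3% of all new loci and 59.2% of RefSeq genes. The commonest order was replicate 2 over 3 over 1, in 73 members, followed by 3 over 2 over 1 in 44. Replicate 1 was highest in 15. The median coefficient of variation, 20.0% over the 3 libraries, was 9.96% over replicates 2 and 3 alone. Also over 2 libraries each, it was 20.4% without replicate 2 and 23.2% without replicate 3. After median-of-ratios scaling of the 3 libraries it was 17.7%.

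The lower level in replicate 1 was shared with new loci as a whole. The log2 ratio of replicate 1 to the mean of replicates 2 and 3 had a median of -0.40 over the members and -0.51 over all 1482 new loci at 5 FPKM or more in 19G. Over the 12596 RefSeq genes at that level it was -0.23. Replicate 1 was below the mean of the other libraries in 135 of 159 members (84.9%), in 86.6% of those new loci and in 67.5% of those RefSeq genes. After median-of-ratios scaling of the libraries the medians were -0.08 over the members, -0.18 over the new loci and 0.10 over the RefSeq genes, so the size of the deficit, and its sign among RefSeq genes, depend on the scaling. Replicate 1 was then below the mean of the others in 92 members (57.9%), in 66.0% of the new loci and in 41.6% of the RefSeq genes.

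In 18 members (11.3%) replicate 1 was more than 2-fold below the mean of the others, and in 0 it was more than 2-fold above. The shares below were 10.7% over all those new loci and 8.25% over RefSeq genes, and the shares above were 0.810% and 5.18%. After median-of-ratios scaling, an alternative for these counts chosen after seeing the data, 7 members (4.40%) were more than 2-fold below and 3 above. The shares below were then 4.25% over the new loci and 4.18% over RefSeq genes. The strongest deficit was in newGene_19189, described above, where replicate 1 held 20.2% of the mean of replicates 2 and 3, followed by newGene_16281, newGene_23633 and newGene_19326. At the other end, replicate 1 exceeded the mean of the others by the widest margin in newGene_9900, at 179.0% of it. newGene_16686 stood at 9.58, 5.48 and 5.55 FPKM, newGene_23914 at 10.7, 6.14 and 6.95, and newGene_15590 at 30.7, 19.6 and 22.0. By level, the members averaging 20 FPKM or more had a median coefficient of variation of 30.7%, against 18.4% at 10 to 20 FPKM and 18.7% under 10. Without replicate 1 these were 9.96%, 9.70% and 11.1%, so the higher spread at high level was not seen in replicates 2 and 3 alone. The threshold of 5 FPKM in every library limits how far a member of low mean can fall in any one of them.

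**Figure D4:**
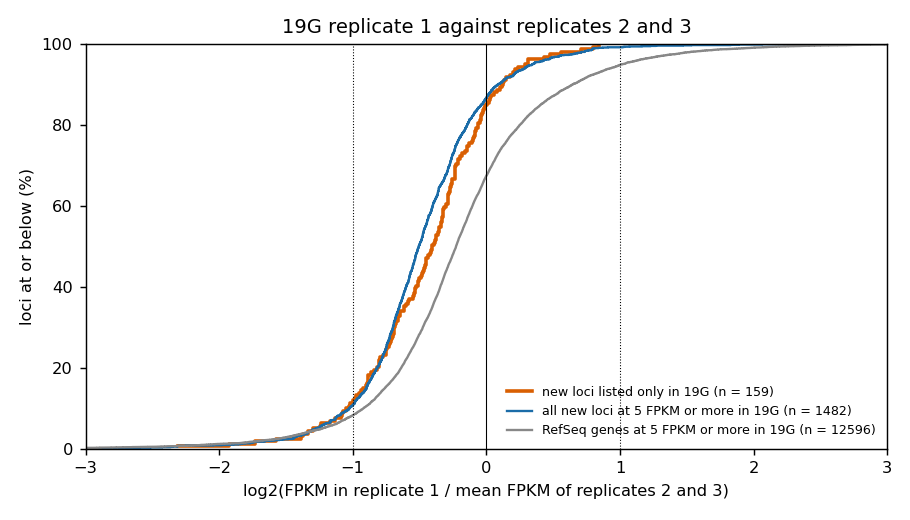
Cumulative share of loci, in percent, by the log2 ratio of FPKM in 19G replicate 1 to the mean of replicates 2 and 3, for the 159 members (orange), all 1482 new loci at 5 FPKM or more in 19G (blue) and 12596 RefSeq genes at that level (grey), with dotted lines at 2-fold. The members, at a median of -0.40, run close to the other new loci, and RefSeq genes lie to the right.

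The identifier numbers of the members ran from 30 to 30342, over nearly the whole range of 4 to 30620 of the new loci. The sources used here do not say whether consecutive numbers mark neighbouring positions. There were 147 pairings of a member with a new locus whose number lies directly before or after its own. A locus between members would count with each of them. In 39 pairings (26.5%) the neighbour was above 0 in every 19G library and at 0 in every 20G library. These include the 4 pairs of members below, each counted both ways, which meet this by the rule. Counted the same way, it was 130 of 1233 (10.5%) for the other new loci at 5 FPKM or more in 19G. With the neighbour at 0 in every 20G library, whatever its 19G values, the shares lay closer together. They were 65 of 147 (44.2%) for the members, the same pairs included, and 406 of 1233 (32.9%) for the other new loci. This is a description, without a test.

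In 4 pairs both consecutive numbers belonged to members. newGene_19365 stood at 14.4, 31.4 and 23.3 FPKM and newGene_19366 at 23.8, 46.9 and 41.3, with the same order of libraries. newGene_7847 stood at 7.65, 21.9 and 17.8 FPKM and newGene_7848 at 7.74, 12.4 and 10.8, again in the same order. newGene_19585 (8.10, 13.4 and 15.2 FPKM) and newGene_19586 (9.08, 10.5 and 10.9) also shared their order, while newGene_4325 (8.02, 10.9 and 10.7) and newGene_4326 (11.3, 10.8 and 12.4) did not. The shared orders were the commonest over all members, with 45.9% at 2 over 3 over 1 and 27.7% at 3 over 2 over 1. Whether these pairs share an order more often than other members was not tested. If several identifiers belong to 1 transcript, the 159 members are fewer than 159 independent loci, and this was not tested.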

How the data were processed

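Poly(A) RNA of 6 petiole libraries was sequenced, 3 of 19G and 3 of 20G, per the labels' protocols. The deposited values are FPKM, as the labels name the authors' columns. Not given in the sources used here are the aligner, the assembler, the build, and whether these libraries supplied the new loci. Summed FPKM ran from 638235 to 701884 per library. Depth is unknown and no count-based test was run.

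Groups and replicate numbers came from the sample titles. The members and lists were chosen with earlier results of these data known. New loci chosen on 1 library of each line were tested in the other 4 with limma 3.58.1 (R 4.3.3, mean-variance trend, no covariates) on log2(FPKM + 1), a scale that understates changes of low loci. Loci with at least 1 FPKM in 2 or more of the 4 were fitted, and p-values were adjusted over all of them by the Benjamini-Hochberg method. The fit was tested on simulated data. Other values were computed in Python 3.11.15 with pandas 2.3.3.

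Named loci are the 8 members highest in 19G, the 4 nearest to each side of each threshold, the 4 with the highest and the 4 with the lowest ratio of replicate 1, the 4 with the smallest coefficient of variation, and all consecutive-number pairs, the last added after their values were seen. Alternatives covered thresholds, scaling, pseudocount, filters, the replicate block and leaving out each library.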

Additional observations from a re-analysis of the deposited data

How the results depend on the processing

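The number of members depends on the thresholds: it was 574 with a minimum of 1 FPKM in 19G, 388 with 2, 68 with 10 and 12 with 20, and 252 or 330 with up to 0.1 or 0.5 FPKM allowed in 20G. With each library left out it ranged from 164 to 240, the highest without 19G replicate 1. The calls in held-out libraries, 252, 379 and 300 for the choices on replicates 1, 2 and 3, became 165, 136 and 111 when only loci with a mean of at least 5 FPKM were tested, which leaves fewer loci by construction. They became 714, 707 and 639 when 1 FPKM was enough to be chosen, which chooses more. With each of the 4 libraries left out they ranged from 223 to 254, from 5 to 391 and from 2 to 303. Leaving out any of the 4 libraries leaves 1 residual degree of freedom. Without a 19G library the residual comes from 20G alone, where most chosen loci were at 0 in both held-out libraries. The low ends came without a 20G library. In that case the residual comes from 19G alone, and the lone 20G library is assumed to vary like 19G. There, 369 or 370 of 405 and 281 or 282 of 336 loci had an unadjusted p under 0.05 by limma and a lower value in 20G, beside 7.25% to 7.70% of all loci tested. With the replicate block the calls were 255, 393 and 306. Whether the numbers pair the libraries is not known. Libraries 1, 2 and 3 of both lines deviated from their line means with correlations of 0.24, -0.01 and 0.13. Between libraries of unlike number the correlations ran from -0.23 to 0.19. With so few libraries these values cannot settle the pairing. Pseudocount, no filter, scaling, no fold criterion and no trend each kept the 3 counts within 1.5 times. The median spread of 20.0% moved beyond its tolerance without 19G replicate 1, to 9.96%, in a range of 9.96% to 23.2% over the libraries left out. The median log2 ratio of replicate 1, -0.40, moved to -0.080 under median-of-ratios scaling. The median level stayed between 10.9 and 12.6 FPKM. What depth limits in the 0 values cannot be said without counts.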
